A study of Mus musculus with 6 samples.

Results

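The 8 genes described here belong to the urea cycle of the liver with its activating enzyme, its mitochondrial carriers and its ammonia supply. They are Cps1, Otc, Ass1 and Asl, which encode 4 enzymes of the cycle, together with Nags, Slc25a13, Slc25a15 and Gls2. They were taken by symbol from the 20140 genes listed in the raw count table, all 8 were found there, and all 8 passed the filter on low counts that left 16370 genes to test.

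Poly(A)-selected RNA of whole liver was sequenced from 3 groups of 2 mice each, all on day 21. The sham group received PBS. The label intra-C was read as the orthotopic cecal CT26 model (PMN, for premetastatic niche) and intra-S as the intrasplenic CT26 model (metastasis). This reading follows the models described in the study's paper, since the labels give only the short codes, PBS or CT26, and the day. CT26 is a colorectal carcinoma line of BALB/c mice. The paper describes its CT26 orthotopic model in BALB/c mice and gives an age of 6 to 10 weeks at purchase for mice of its tumor models, whereas the labels of these livers state neither strain, age nor sex. The labels name no genotype and no drug for any of the 3 groups. The route of implantation changed together with the group, so that route and disease state cannot be told apart. The series describes the 2 livers of a group as biological replicates. The p-values rest on a spread estimated for each gene within all 3 groups together. Those of PMN against sham livers therefore also carry the spread between the metastasis livers.

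The urea cycle turns ammonia, which is toxic, into urea, which the kidney excretes. Its first steps run in the mitochondria of hepatocytes and the later ones in the cytosol, so that ornithine has to be carried in and citrulline out. In the liver lobule the cycle is a periportal function, while the hepatocytes around the central vein capture what ammonia remains as glutamine. Fasting, glucagon and glucocorticoids are known to raise the transcripts of its enzymes.

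The libraries held between 32838321 and 43368309 counts, and the 8 genes took between 0.449% and 1.04% of them. Levels of 1 gene across livers are given as CPM, the counts scaled to library size with TMM factors, and levels of different genes are compared only as the TPM deposited by the authors, which also account for gene length. A gene was called changed at a Benjamini-Hochberg adjusted p under 0.05 in edgeR's quasi-likelihood test over all 6 livers. Hepatocyte markers were high in every liver, at a summed 134900 to 210200 CPM over 13 markers, of which Cps1 is one, and 130600 to 204400 CPM over the other 12. Neutrophil markers summed to 3.94 to 5.48 CPM in sham, 298.2 to 657.4 CPM in PMN and 441.9 to 1119 CPM in metastasis livers, with up to 3 of 13 at 0 in a sham liver. The metastasis livers differed more from each other than the livers of the other groups, and the values of both are given for each of the 8 genes.

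The promoters of Otc and Slc25a15 are shown first, because the proteins serve the same step, the making and export of citrulline, and their transcripts went in opposite directions in the fitted values. RefSeq promoter windows on GRCm38.p6 were at hand for 5 of the 8 genes, Otc, Slc25a15, Ass1, Nags and Slc25a13. The stretch read covers 175 bases, from 250 to 76 bases before the start site on which each RefSeq window is built. That site is the first base of the gene for Ass1, Nags and the upstream start of Slc25a15. It lies 75 bases inside the gene for Otc, whose stretch ends at the base before the gene, and 131 bases inside for Slc25a13, whose stretch has 56 bases within the gene. In lower case throughout, because none of the letters searched for occurs in either, the stretches are chrX:10252055-10252229 on the plus strand for Otc and chr8:22398697-22398871 on the minus strand for the upstream start of Slc25a15, each written 5′ to 3′.
Otc: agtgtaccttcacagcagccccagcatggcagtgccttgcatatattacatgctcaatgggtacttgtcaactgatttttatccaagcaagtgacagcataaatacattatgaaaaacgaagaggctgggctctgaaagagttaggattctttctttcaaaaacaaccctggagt
Slc25a15: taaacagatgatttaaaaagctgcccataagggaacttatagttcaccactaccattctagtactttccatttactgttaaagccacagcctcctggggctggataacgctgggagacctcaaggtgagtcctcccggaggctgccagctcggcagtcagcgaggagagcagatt
Searched on both strands were a C/EBP motif (TTGCNNAA, in 7.22% of 32851 such stretches), an HNF4A motif (CAAAGNNCA, 3.82%), a glucocorticoid receptor hexamer (TGTNCT, 35.2%), a STAT motif (TTCNNNGAA, 5.13%), a CREB core motif (TGACG, 10.3%) and an HNF1 motif (a palindrome, 0.00304%). The stretch of the downstream start of Slc25a15, which lies within the gene, and the Ass1 stretch held none of them either, Nags held 1 glucocorticoid receptor hexamer and Slc25a13 held 2. The absence of these letters says nothing about whether a factor acts there.

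The question behind the first comparisons was how the liver of a tumor-bearing mouse differs from a sham liver. Otc was lower in both tumor groups, Gls2 was lower in metastasis livers and close to the threshold in PMN livers, and none of the 8 genes passed the test upward. In PMN against sham livers 0 of the 8 were called higher and 1 lower, where 4.92% and 2.38% of all tested genes were called. In metastasis against sham livers 0 were called higher and 2 lower, against 6.78% and 3.95% of all tested genes. The median log2 fold change of the 8 genes was -0.50 in PMN and 0.08 in metastasis livers, beside 0.01 and 0.04 over all tested genes. Both comparisons use the same sham livers and are not independent of each other. In whole liver, fewer hepatocytes and less RNA per hepatocyte cannot be told apart.

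**Figure D1:**
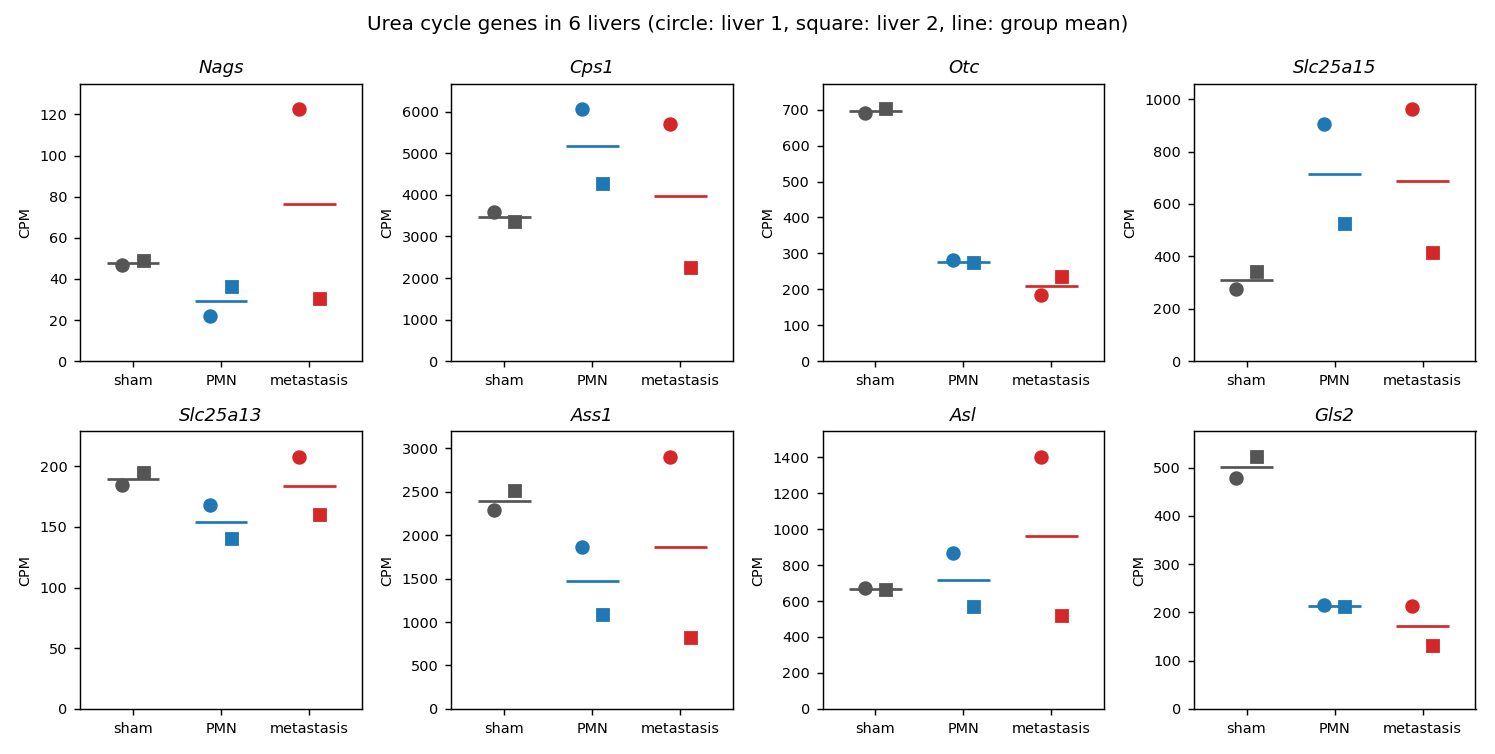
CPM of each of the 8 genes (vertical axes, each starting at 0) in the 6 livers by group, with circles for liver 1, squares for liver 2 and a line at the group mean. Otc and Gls2 lie lower in all 4 tumor livers than in both sham livers, Slc25a15 lies higher in all 4, and for Nags, Cps1, Ass1 and Asl the 2 metastasis livers lie far apart.

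Ornithine transcarbamylase, encoded by Otc (chrX:10252230-10321024, plus strand, GRCm38.p6), joins carbamoyl phosphate to ornithine in the mitochondrion and yields citrulline. Its transcript stood at 691.9 and 702.6 CPM in sham, 281.7 and 272.0 CPM in PMN and 184.7 and 235.5 CPM in metastasis livers. The groups did not overlap, the metastasis livers being lowest, and the livers of the sham and PMN groups lay close together. Against sham, Otc fell by 1.33 on the log2 scale in PMN livers (SE 0.22, 2.52-fold lower, edgeR quasi-likelihood adjusted p = 0.023) and fell by 1.73 in metastasis livers (SE 0.22, 3.32-fold lower, adjusted p = 0.0102). The direction was the same in every alternative run. The PMN call was lost when either sham or either PMN liver was left out, with edgeR adjusted p between 0.171 and 0.224, and the metastasis call when either sham liver was left out (adjusted p of 0.112 and 0.11). Without either sham liver no gene of the whole table passed the test in these comparisons.

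Glutaminase 2, encoded by Gls2 (chr10:128194635-128210004, plus strand), is the liver type glutaminase and releases ammonia from glutamine inside periportal mitochondria. Gls2 was measured at 477.9 and 522.8 CPM in sham, 215.6 and 210.5 CPM in PMN and 213.4 and 129.5 CPM in metastasis livers. All 4 tumor livers were below both sham livers, and the PMN and metastasis livers overlapped. Gls2 fell by 1.55 on the log2 scale in metastasis livers (SE 0.28, 2.92-fold lower, edgeR adjusted p = 0.0244). In PMN livers the log2 fold change was -1.23 (SE 0.28), with an unadjusted p of 0.00366 and an edgeR adjusted p of 0.05004, just above the threshold. That value passed in 9 of 16 alternatives, including DESeq2 (adjusted p = 0.00139), and not in the other 7. The metastasis call was lost in 5 of 16 alternatives, namely when only the sham and metastasis livers were fitted (adjusted p = 0.0739) and when either sham liver (0.16 and 0.183) or either PMN liver (0.0713 and 0.0746) was left out. The exons of Gls2 overlap those of Spryd4 on the opposite strand by up to 97 bases. The library kit named in the labels does not mark strand, so reads there cannot be told apart by strand. Spryd4 itself ranged from 20.5 to 33.0 CPM over the 6 livers.

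Slc25a15 (chr8:22375550-22398621, minus strand) encodes the carrier that brings ornithine into the mitochondrion in exchange for citrulline. It was at 277.0 and 339.5 CPM in sham, 904.6 and 524.7 CPM in PMN and 963.2 and 413.7 CPM in metastasis livers. All 4 tumor livers were above both sham livers, with the first liver of each tumor group well above the second. The log2 fold change was 1.21 in PMN (SE 0.45, unadjusted p = 0.0343, edgeR adjusted p = 0.151) and 1.16 in metastasis livers (SE 0.45, unadjusted p = 0.0403, adjusted p = 0.146), so that neither passed. The PMN value passed when only the sham and PMN livers were fitted (edgeR adjusted p = 0.0165) and when either metastasis liver was left out (0.0136 and 0.0149), when 14.5% and 14.4% of all tested genes were called higher without metastasis liver 1 and 2. The metastasis value was 0.43 without metastasis liver 1 and 1.64 without metastasis liver 2, where it passed (adjusted p = 0.0067).

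Because Slc25a15 and Otc act on the same pair of metabolites, their ratio was taken within each liver, where library scaling has no effect. The TPM ratio of Slc25a15 to Otc was 0.508 and 0.613 in sham, 4.07 and 2.45 in PMN and 6.61 and 2.23 in metastasis livers. Otc was thus the more abundant of the pair in both sham livers and the less abundant in all 4 tumor livers. Slc25a2, a second ornithine carrier, had between 0 and 10 counts in each library and was not tested.

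The cycle begins with Cps1 (chr1:67122426-67231267, plus strand), which encodes the enzyme that makes carbamoyl phosphate from ammonia and bicarbonate. Cps1 stood at 3585 and 3351 CPM in sham, 6072 and 4272 CPM in PMN and 5716 and 2235 CPM in metastasis livers. Both PMN livers were above the sham livers, while 1 metastasis liver was above and the other below them. Neither comparison with sham passed, with log2 fold changes of 0.58 (SE 0.45, edgeR adjusted p = 0.453) and 0.20 (SE 0.45, adjusted p = 0.801), and the sign of the second turned when libraries were scaled by their totals (-0.11) or taken as TPM (-0.25). The TPM ratio of Otc to Cps1 was 0.449 and 0.488 in sham, 0.108 and 0.148 in PMN and 0.0752 and 0.245 in metastasis livers, lower in all 4 tumor livers. Cad, whose protein makes carbamoyl phosphate for pyrimidines in the cytosol, stayed between 3.79 and 8.28 CPM and passed in neither comparison.

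Nags (chr11:102145513-102149528, plus strand) encodes the synthase of N-acetylglutamate, without which the Cps1 enzyme is inactive. It was the least abundant of the 8 genes in each group by mean TPM. Nags was at 46.5 and 48.6 CPM in sham, 22.0 and 36.3 CPM in PMN and 122.7 and 30.3 CPM in metastasis livers. Both PMN livers lay below sham, and the metastasis livers lay on either side. The TPM ratio of Nags to Cps1 was 0.0684 and 0.0765 in sham, 0.0190 and 0.0447 in PMN and 0.113 and 0.0715 in metastasis livers, so that it was lower in both PMN livers while 1 metastasis liver lay within the sham range. The log2 fold changes were -0.71 (SE 0.60, edgeR adjusted p = 0.496) and 0.69 (SE 0.60, adjusted p = 0.484). Its exons overlap those of Gm11586 on the opposite strand by up to 443 bases, where reads of the 2 genes cannot be told apart by strand. Gm11586 itself was at 0.491 to 1.36 CPM.

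Slc25a13 (chr6:6041218-6217304, minus strand) encodes citrin, which exports the aspartate that the cytosolic part of the cycle needs. Slc25a13 had the narrowest range of the 8 over the livers, at 184.3 and 194.1 CPM in sham, 168.4 and 140.1 CPM in PMN and 208.0 and 160.0 CPM in metastasis livers. The PMN livers were below sham and the metastasis livers on either side. Log2 fold changes were -0.29 (SE 0.22, edgeR adjusted p = 0.443) and -0.04 (SE 0.22, adjusted p = 0.922). Its paralog Slc25a12, the carrier of muscle and brain, was at 14.2 and 14.9 CPM in sham, 20.8 and 19.7 CPM in PMN and 29.0 and 22.1 CPM in metastasis livers, with edgeR adjusted p of 0.202 and 0.0563. By TPM, Slc25a13 exceeded Slc25a12 25.8-fold and 26.0-fold in sham, 16.2-fold and 14.2-fold in PMN and 14.3-fold and 14.4-fold in metastasis livers.

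Ass1 and Asl encode the cytosolic pair that turns citrulline and aspartate into arginine and fumarate. Ass1, argininosuccinate synthase (chr2:31470270-31520670, plus strand), was at 2286 and 2510 CPM in sham, 1865 and 1081 CPM in PMN and 2904 and 814 CPM in metastasis livers. Asl, argininosuccinate lyase (chr5:130011258-130024381, minus strand), was at 673.6 and 662.2 CPM in sham, 867.1 and 568.4 CPM in PMN and 1404 and 517.1 CPM in metastasis livers. Ass1 was below sham in both PMN livers, and otherwise the tumor livers of both genes lay on either side of sham. Log2 fold changes of Ass1 were -0.70 (SE 0.58, edgeR adjusted p = 0.48) and -0.37 (SE 0.58, adjusted p = 0.707). Those of Asl were 0.10 (SE 0.47, adjusted p = 0.914) and 0.52 (SE 0.47, adjusted p = 0.492), of which the first turned to -0.17 with libraries scaled by their totals and to -0.12 with TPM. Within a liver, Ass1 exceeded Asl 4.64-fold and 5.18-fold by TPM in sham, 2.94-fold and 2.6-fold in PMN and 2.83-fold and 2.15-fold in metastasis livers, so that the ratio was lower in all 4 tumor livers.

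**Figure D2:**
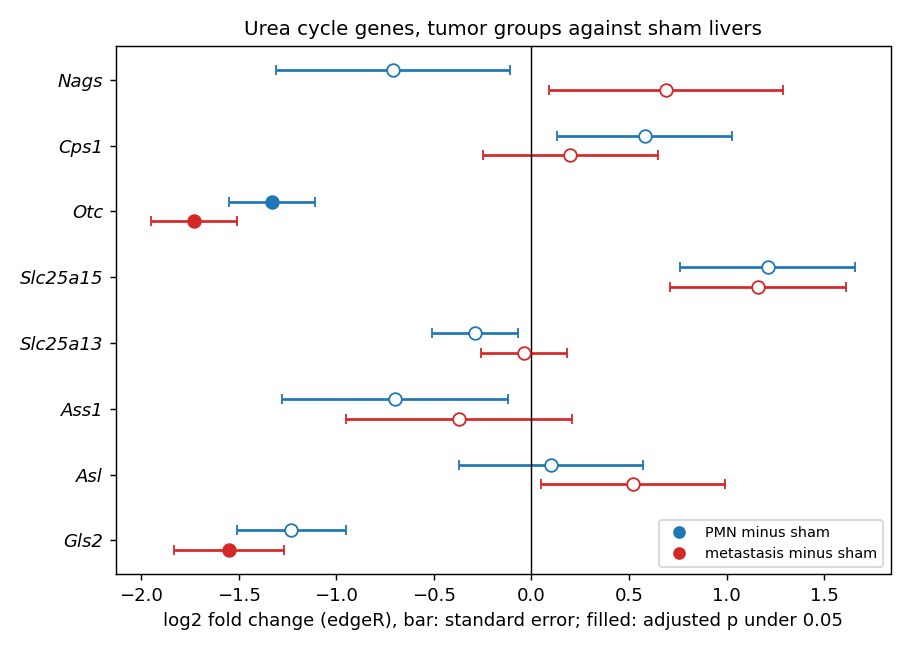
Log2 fold change (horizontal axis) of the 8 genes against sham livers in PMN livers (blue) and metastasis livers (red), with bars of 1 standard error from edgeR and filled points for an adjusted p under 0.05. The filled points are Otc in both comparisons, at -1.33 and -1.73, and Gls2 in metastasis livers, at -1.55.

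In the order of levels by mean TPM, the sham livers had Ass1 (3304 TPM) on top, then Cps1 (699.2 TPM) and Asl (673.5 TPM), then Gls2 (451.8 TPM), Otc (327.3 TPM), Slc25a15 (183.5 TPM), Slc25a13 (94.3 TPM) and Nags (50.5 TPM). Only Cps1 and Asl were not separated by the livers there. In PMN livers Ass1 (1768 TPM) led, followed by Cps1 (910.8 TPM) and Asl (631.5 TPM). Slc25a15 (370.5 TPM) stood above Gls2 (168.9 TPM) and Otc (114.1 TPM) there, and Slc25a13 (67.4 TPM) and Nags (27.4 TPM) were last, with every pair of neighbours separated. In metastasis livers Ass1 had the highest mean (2046 TPM), before Asl (776.1 TPM), Cps1 (642.9 TPM) and Slc25a15 (329.2 TPM), and no neighbours among these were separated. Gls2 (125 TPM) came next, and Otc (80.7 TPM), Slc25a13 (74.4 TPM) and Nags (64.9 TPM) were not separated either.

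**Figure D3:**
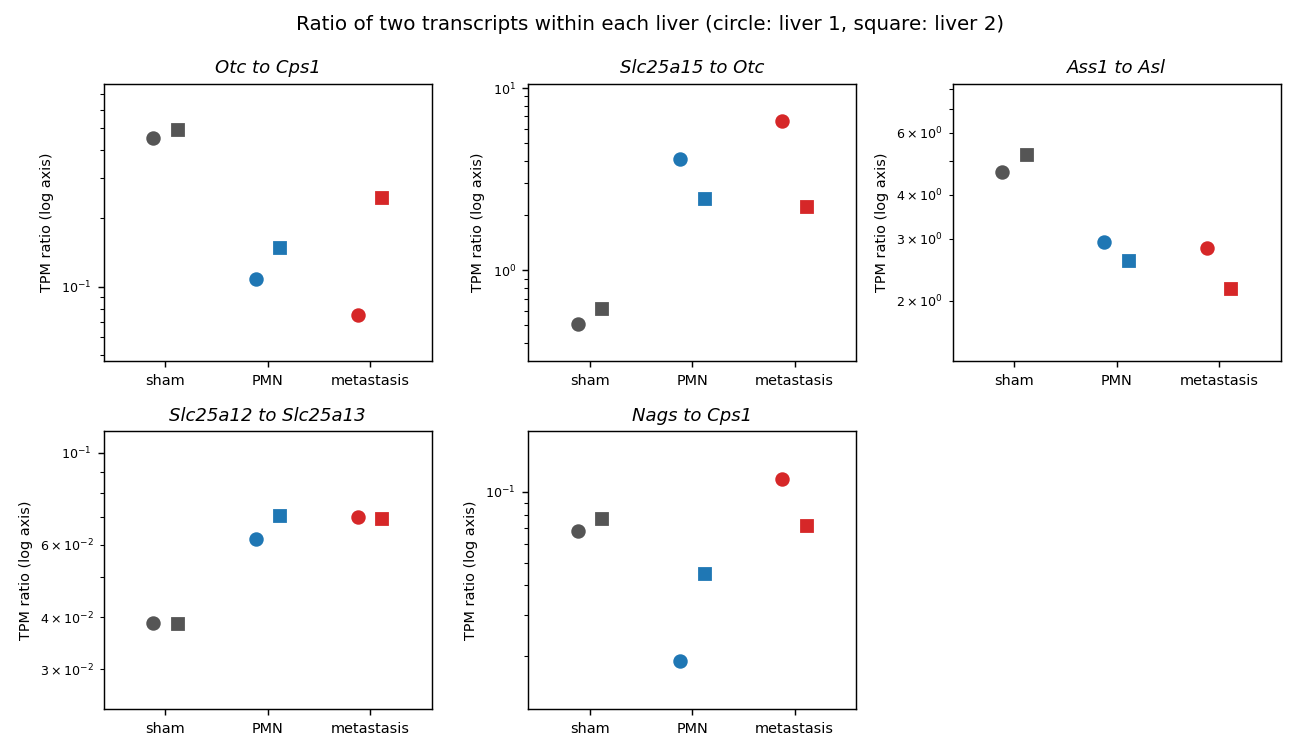
TPM ratio of 2 transcripts within each liver (vertical log axes) by group, with circles for liver 1 and squares for liver 2. In 4 of the 5 ratios the 4 tumor livers lie apart from the 2 sham livers, as Slc25a15 to Otc does with 0.508 and 0.613 in sham and 2.23 to 6.61 in tumor livers, and the ratio of Nags to Cps1 overlaps between sham and metastasis livers.

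Counted without the test, 2 of the 8 genes (Cps1 and Slc25a15) were higher in both PMN livers than in both sham livers and 5 (Otc, Gls2, Nags, Ass1 and Slc25a13) were lower. Of all tested genes, 34.4% and 34.0% were. In metastasis livers 1 (Slc25a15) was higher and 2 (Otc and Gls2) lower without overlap, where 30.4% and 30.0% of all tested genes were. With an unadjusted p below 0.05, 1 gene was higher and 2 lower in PMN livers, beside 15.2% and 11.8% of all tested genes, and 1 was higher and 2 lower in metastasis livers, beside 17.2% and 13.0%.

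The direct comparison asked whether metastasis livers differ from PMN livers. None of the 8 genes was called by edgeR in either direction, none had an unadjusted p under 0.05, and 0.00% of all tested genes were called in each direction, while 6.99% (higher) and 6.41% (lower) had an unadjusted p under 0.05. DESeq2 also called 0 of the 8 genes, where it called 240 of all genes higher and 287 lower. Otc was the only one of the 8 without overlap, lower in metastasis livers by 0.40 on the log2 scale (SE 0.21, edgeR adjusted p = 0.446), where 21.5% of all tested genes were lower and 21.9% higher without overlap. The largest difference was that of Nags (1.39), with an edgeR adjusted p of 0.388. Without metastasis liver 2, Nags (2.08, edgeR adjusted p = 0.00403) and Asl (0.97, 0.0355) passed upward and Otc passed downward (-0.59, 0.0385), when 7.53% and 9.02% of all tested genes were called. Without metastasis liver 1 none of the 8 passed, when 0.137% and 0.176% of all tested genes were called. In each of these fits the lone liver is assumed to vary like the others.

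The 2 metastasis livers set much of this. Metastasis liver 1 exceeded liver 2 by 4.05-fold for Nags, 3.57-fold for Ass1, 2.71-fold for Asl, 2.56-fold for Cps1 and 2.33-fold for Slc25a15. The difference was 1.65-fold for Gls2 and 1.30-fold for Slc25a13, while Otc was 0.784 times as high in liver 1. Among the 7261 tested genes with at least 10 CPM, 16.9% differed over 2-fold between these livers, compared with 1.03% between the sham and 2.86% between the PMN livers. The ratio of liver 1 to liver 2 lay between 0.816 and 1.07 for all 8 genes in sham, and between 0.605 for Nags and 1.72 for Ass1 and Slc25a15 in PMN livers. Summed over Cps1, Otc, Ass1 and Asl, the livers had 4883 and 5125 TPM in sham, 4079 and 2769 TPM in PMN and 5234 and 1858 TPM in metastasis. The metastasis livers therefore held both the highest and the lowest sum of the 6.

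**Figure D4:**
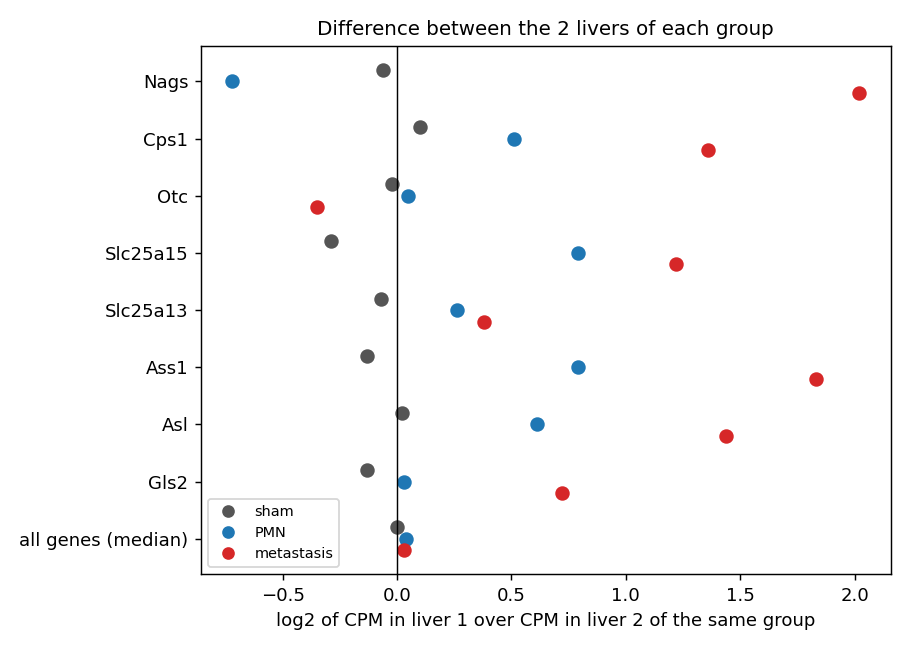
Log2 of the CPM in liver 1 over the CPM in liver 2 of the same group (horizontal axis) for each of the 8 genes and for the median of tested genes with at least 10 CPM. Sham points lie near 0, and in metastasis livers 7 of the 8 genes lie to the right, up to 2.02 for Nags, with Otc at -0.35.

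Against sham, leaving out metastasis liver 2 gave 4 of the 8 genes called higher, which were Cps1 (0.72, edgeR adjusted p = 0.0352), Asl (1.07, 0.0141), Nags (1.37, 0.00931) and Slc25a15 (1.64, 0.0067), and 17.3% of all tested genes were then called higher and 15.4% lower. Leaving out metastasis liver 1 instead gave none higher and 3 lower, Otc, Gls2 and Ass1 (-1.55, adjusted p = 0.0169), where 9.58% of all tested genes were called higher and 6.93% lower. Otc and Gls2 were called lower with either metastasis liver left out. For Asl the sign depended on which metastasis liver remained, at -0.36 without liver 1 and 1.07 without liver 2. The same held for Nags at -0.64 and 1.37, for Cps1 at -0.63 and 0.72 and for Ass1 at -1.55 and 0.28. The metastasis livers also differed in other markers, with summed neutrophil markers of 1119 and 441.9 CPM and summed cholangiocyte and epithelial markers of 110.9 and 229.0 CPM in livers 1 and 2. The sum of liver 2 was mostly Spp1 (19.6 and 180.2 CPM), a secreted protein that is not confined to bile duct cells, and without Spp1, a choice made after the data were seen, the order turned, at 91.3 and 48.9 CPM. The part of either list in the values of these 8 genes was not tested.

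Since whole liver mixes cell types, each of the 8 genes was also set against the median log2 CPM of 12 hepatocyte markers in the same liver. That median was 0.51 lower in PMN and 0.49 lower in metastasis than in sham livers, but the markers did not move together. Of these markers, 1 was called higher in each comparison and 1 and 2 lower. The shares of all tested genes called higher and lower were 4.92% and 2.38% in PMN and 6.78% and 3.95% in metastasis livers. The median of the markers' log2 fold changes was 0.06 and 0.19. Their summed CPM was higher in metastasis livers than in sham by 0.41 on the log2 scale. Their mean log2 CPM, at -0.08 and -0.14, and their summed CPM were therefore taken as other references after the data were seen. Relative to the median, Otc remained lower in all 4 tumor livers, by 0.82 on average in PMN and 1.25 in metastasis livers. Gls2 was likewise lower, with mean differences of -0.72 and -1.09, and Slc25a15 was higher in all 4 tumor livers (1.68 and 1.54). These 3 genes lay apart from sham in the same direction with each of the other references, at -1.25 and -1.60 (mean) and -1.46 and -2.16 (sum) for Otc, -1.15 and -1.45 and then -1.36 and -2.00 for Gls2, and 1.25 and 1.18 and then 1.04 and 0.63 for Slc25a15. Cps1 was above sham in PMN livers with each reference (1.07, 0.64 and 0.43) and overlapped in metastasis livers. Asl was above sham relative to the median (0.59 and 0.85) and overlapped with sham relative to the mean and the sum. Slc25a13 changed direction with the reference, at 0.21 and 0.44 relative to the median and -0.43 and -0.47 relative to the sum. Ass1 and Nags overlapped with sham relative to the median (-0.23 and -0.15 for Ass1, -0.23 and 0.86 for Nags), and in PMN livers both were below sham relative to the mean (-0.67 for each) and the sum (-0.88 for each). Relative to the sum, Ass1 was below sham in metastasis livers too (-1.05).

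Across the 6 livers, Otc and Gls2 had the highest correlation of log2 CPM of any pair of the 8 genes (Pearson's r = 0.91), followed by Ass1 with Slc25a13 (0.86). Otc and Slc25a15 had the lowest (-0.79). These values describe 6 livers that share their groups and scaling. Of 2247 other genes with at least 50 CPM, those nearest in profile to the mean of Cps1, Otc, Ass1 and Asl over the 6 livers were Gm4737 (distance 0.35 on the log2 scale), Gabarapl1 (0.36), Ogdh (0.39), Hpn (0.40) and Sun2 (0.41). Ogdh, a subunit of the oxoglutarate dehydrogenase complex of the citric acid cycle, was at 100.8 and 103.8 CPM in sham, 103.3 and 92.6 CPM in PMN and 121.2 and 59.6 CPM in metastasis livers. In Ogdh, as in the mean of the 4 enzymes, metastasis liver 1 was highest and metastasis liver 2 lowest. Hpn, a hepatocyte surface protease, was at 305.1 and 327.4 CPM in sham, 271.8 and 254.0 CPM in PMN and 289.1 and 178.4 CPM in metastasis livers, and was lowest in metastasis liver 2 as well.

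Of 26 genes that feed nitrogen and bicarbonate into the cycle, 0 were called higher, 3 lower and 23 in neither direction in PMN livers, where 4.92% of all tested genes were called higher and 2.38% lower. In metastasis livers 0 were called higher, 7 lower and 19 in neither direction, beside 6.78% and 3.95% of all tested genes, with median log2 fold changes of -0.67 and -0.70 in PMN and metastasis livers beside 0.01 and 0.04 over all tested genes. Car5a, the mitochondrial carbonic anhydrase that supplies bicarbonate to the Cps1 enzyme, was at 27.6 and 24.8 CPM in sham, 6.85 and 9.13 CPM in PMN and 3.59 and 6.13 CPM in metastasis livers. Its log2 fold change was -1.71 in PMN (SE 0.31, edgeR adjusted p = 0.0317) and -2.43 in metastasis livers (SE 0.32, adjusted p = 0.0121), with no overlap between any of the 3 groups. Aldh4a1, which completes the breakdown of proline to glutamate, was at 367.0 and 375.8 CPM in sham, 158.9 and 170.7 CPM in PMN and 69.6 and 97.7 CPM in metastasis livers, and was called lower in both comparisons (-1.17, edgeR adjusted p = 0.037, and -2.15, adjusted p = 0.00757). Amdhd1, an enzyme of histidine breakdown, was called lower in both as well (-1.43, edgeR adjusted p = 0.032, and -1.65, adjusted p = 0.0182). Prodh, the first enzyme of proline breakdown, was at 185.2 and 203.7 CPM in sham and 56.0 and 20.7 CPM in metastasis livers and was called lower there (-2.34, edgeR adjusted p = 0.029). Amt of the glycine cleavage system, at 33.3 and 36.1 CPM in sham and 6.77 and 14.7 CPM in metastasis livers, was called lower as well (-1.69, adjusted p = 0.04).

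On the pericentral side, a list of 7 genes held Glul, Oat, Slc1a2, Rhbg, Lgr5, Axin2 and Tbx3. None passed in either comparison, beside 4.92% (higher) and 2.38% (lower) of all tested genes in PMN and 6.78% and 3.95% in metastasis livers. The median log2 fold changes of the list were -0.17 and -0.25. Glul, the glutamine synthetase, was at 426.2 and 494.5 CPM in sham, 420.1 and 398.2 CPM in PMN and 438.3 and 407.3 CPM in metastasis livers. Oat, which takes ornithine out of the cycle, was at 682.0 and 900.9 CPM in sham, 389.5 and 321.9 CPM in PMN and 1386 and 310.0 CPM in metastasis livers, again with metastasis liver 1 highest and liver 2 lowest. Of 10 periportal genes, 0 were called higher and 1 lower in PMN livers and 1 higher and 2 lower in metastasis livers, beside 4.92% and 2.38% of all tested genes in PMN and 6.78% and 3.95% in metastasis livers. Cyp2f2, a cytochrome P450 of periportal hepatocytes, was the one called lower in both (-1.44, edgeR adjusted p = 0.0477, and -1.89, adjusted p = 0.021), and Pigr, the receptor for polymeric immunoglobulin, was lower in metastasis livers (-1.53, adjusted p = 0.0141).

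Of 19 known regulators of urea cycle transcription, 0 were called higher and 1 lower in PMN and 2 higher and 1 lower in metastasis livers, beside the same shares of all tested genes (4.92% and 2.38%, then 6.78% and 3.95%). Cebpa, a factor that activates hepatocyte metabolic genes including those of the cycle, stood at 168.1 and 271.0 CPM in sham, 57.7 and 77.7 CPM in PMN and 172.4 and 106.0 CPM in metastasis livers. The PMN livers were lowest, and the metastasis livers overlapped with sham. Cebpa fell by 1.70 on the log2 scale in PMN livers (SE 0.36, edgeR adjusted p = 0.0423). In metastasis livers Cebpd, an inflammation-induced member of the same family (2.76, adjusted p = 0.0421), and Foxa3, a forkhead factor of hepatocytes (1.37, adjusted p = 0.0253), rose, and Ppara, the fasting-activated receptor for fatty acids, fell by 1.38 (adjusted p = 0.0301). Hnf4a, which also drives Otc, was at 446.8 and 360.7 CPM in sham, 602.7 and 805.5 CPM in PMN and 603.4 and 406.8 CPM in metastasis livers and passed in neither comparison, with edgeR adjusted p of 0.137 and 0.486.

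The counts of these lists in metastasis against sham livers depended on both metastasis livers. Leaving out a metastasis liver was added for the lists after the data were seen, and the shares of all tested genes called were then 9.58% higher and 6.93% lower without liver 1 and 17.3% and 15.4% without liver 2. Of the 26 genes of nitrogen and bicarbonate supply, 0 were called higher and 16 lower without liver 1, and 4 higher and 13 lower without liver 2. The 10 periportal genes gave 2 higher and 3 lower without liver 1 and 4 higher and 3 lower without liver 2. Among the 19 regulators these were 2 and 4 without liver 1 and 6 and 5 without liver 2, and among the 7 pericentral genes 0 and 1 and then 1 and 3. The genes named from these lists as called in metastasis livers (Car5a, Aldh4a1, Amdhd1, Prodh, Amt, Cyp2f2, Pigr, Cebpd, Foxa3 and Ppara) kept their direction without either liver. Prodh was at -3.22 without liver 1 and -1.80 without liver 2, and Amt at -1.24 and -2.36. For single list genes only the metastasis livers were left out, so their calls in PMN livers have no such reading. All calls of list genes against sham also rested on both sham livers, as for Otc.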

How the data were processed

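Bulk RNA-seq of 6 mouse livers was analysed, with groups taken from the sample labels. According to the submitters' processing notes, the authors used HISAT2 2.1.0, featureCounts of Subread 2.0.6 and mm10. Annotation and strand setting are not given in the sources used here. The library kit named in the labels does not mark strand. The authors deposited a table of raw counts per gene and liver, and a second deposited table holds TPM values that they derived from these counts and gene lengths. All columns were matched to a liver by name.

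Counts were tested here with edgeR 4.0.16 (limma 3.58.1, R 4.3.3), using TMM, filterByExpr with a count minimum of 10, a quasi-likelihood fit of the 6 livers together and Benjamini-Hochberg adjustment across the 16370 tested genes. The study's methods name no test for single genes of the bulk livers. The procedure was tested on simulated data. TPM entered as deposited for ratios and orders of levels. A count of 0 allows up to 3 counts, or 0.0679 to 0.0928 CPM, which covers counting error only.

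The 8 genes and all lists were chosen with earlier results of these data known. All 8 genes and the other paralogs are named, and from each other list up to 4 genes per direction and comparison, those called with at least 5 mean CPM and the largest log2 fold change. Likeness to a mean profile is the Euclidean distance of centred log2 CPM over the 6 livers, and the profile was set to 4 enzymes after the data were seen. Further genes named with values (Glul, Oat, Hnf4a, Sirt3, Slc38a3, Slc38a4, Slc36a1) were chosen after their values were seen, and not every gene that this rule covers is named. Alternatives were DESeq2 1.42.0, a robust spread, no filter or a minimum of 10 counts in each of the livers, a fit of the compared groups alone, the replicate number as block, no TMM factors or TMM factors computed without the 100 genes of highest abundance, limma with log2(TPM + 0.1) or log2(TPM + 1), and each liver left out. List genes Nos2, Tf, Retnla, Cdx2, Cdh17 and Ahsp were not analysed here, and a further member of the gene set and 2 paralogs are not reported here.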

Additional observations from a re-analysis of the deposited data

How the results depend on the processing

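With 2 livers per group, single livers decide many calls, and an alternative that leaves 1 liver in a group assumes that it varies like the others. Of the 8 genes, the number called lower in PMN against sham livers was 2 instead of 1 with DESeq2, with no filter, with 10 counts in every liver, with only the groups compared, with library size without TMM and with limma on either TPM scale, and ranged from 0 to 2 with single livers left out. The number called higher was 1 with only the groups compared, and 0 to 2 with livers left out. In metastasis against sham livers the number called lower was 1 with only the groups compared and 0 to 3 with livers left out, and the number called higher 0 to 4. In metastasis against PMN livers these were 0 to 1 and 0 to 2. The numbers of all tested genes called moved as well, also with livers left out. With only the groups compared, 2548 were called higher and 2223 lower in PMN livers, beside 806 and 389 in the main fit. In metastasis livers these were 276 and 116, beside 1110 and 646. Why these counts moved was not tested. The median log2 fold change of all tested genes against sham was 0.01 in PMN and 0.04 in metastasis livers. It was -0.25 and -0.23 with library size without TMM and -0.10 to -0.26 with TPM.

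Signs turned for values that did not pass the test. In PMN against sham livers Asl turned to -0.17 without TMM and -0.12 on both TPM scales. Cps1 in metastasis against sham livers turned to -0.11 and -0.25. With single livers left out, log2 fold changes in PMN livers ranged from -0.23 to 0.40 for Asl. In metastasis against sham livers they ranged from -0.63 to 0.72 for Cps1, -1.55 to 0.28 for Ass1, -0.36 to 1.07 for Asl, -0.64 to 1.37 for Nags and -0.24 to 0.14 for Slc25a13. In metastasis against PMN livers they ranged from -1.21 to 0.14 for Cps1, -0.86 to 0.98 for Ass1, -0.47 to 0.97 for Asl, -0.79 to 0.43 for Slc25a15 and -0.72 to 0.00 for Gls2. Otc and Gls2 kept their negative sign against sham in all 16 alternatives, from -1.59 to -1.28 and -2.04 to -1.56 for Otc and from -1.49 to -1.17 and -1.94 to -1.23 for Gls2 in PMN and metastasis livers.

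Over all tested genes, the number called higher and lower in PMN livers was 806 and 389, and 497 to 2548 and 259 to 2223 in the alternatives with all livers of the groups compared. In metastasis livers it was 1110 and 646, with 276 to 2065 and 116 to 1553. Between metastasis and PMN livers DESeq2 called 240 and 287 and edgeR 0. The share of higher calls falls by more than 10 percentage points without TMM, with 569 higher and 801 lower in PMN and 838 and 1115 in metastasis livers, and with limma on log2(TPM + 1), with 497 and 896 and 685 and 1553. Over all tested genes, same-numbered livers did not deviate together (correlations of -0.032, 0.083 and 0.043), which does not speak for the 8 genes alone. Among these, liver 1 exceeded liver 2 in both tumor groups for Cps1, Ass1, Asl, Slc25a13, Slc25a15 and Gls2. This was not so for Otc and Nags, and the reason was not tested. The replicate block gave 1 of the 8 genes lower in PMN and 2 lower in metastasis livers, 673 and 259 of all genes in PMN livers, 954 and 553 in metastasis livers, and changed no call of the 8 genes.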

Other observations

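Arginine can also leave the cycle toward nitric oxide, polyamines and creatine. Of 18 tested genes for these routes, 0 were called higher and 1 lower in PMN livers and 0 higher and 3 lower in metastasis livers, beside 4.92% higher and 2.38% lower and then 6.78% and 3.95% of all tested genes. The median log2 fold changes were -0.35 and -0.37, and 0.01 and 0.04 over all tested genes. Agmat, an agmatinase that releases urea from agmatine, was at 164.7 and 184.0 CPM in sham, 49.4 and 63.3 CPM in PMN and 12.2 and 40.8 CPM in metastasis livers. The 3 groups did not overlap, and Agmat fell by 2.72 on the log2 scale in metastasis against sham livers (SE 0.54, edgeR adjusted p = 0.031). Ddah1, which degrades the nitric oxide synthase inhibitor dimethylarginine, was at 70.0 and 78.9 CPM in sham, 19.3 and 25.0 CPM in PMN and 15.0 and 29.7 CPM in metastasis livers, and was lower in both (-1.75, edgeR adjusted p = 0.0374, and -1.74, adjusted p = 0.0312). Paox, a polyamine oxidase, was lower in metastasis livers (-1.19, adjusted p = 0.0254).

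Of 12 carriers that bring amino acids across the cell surface, 2 were called higher, 0 lower and 10 in neither direction in PMN livers, where 4.92% of all tested genes were called higher and 2.38% lower. In metastasis livers 4 were called higher, 0 lower and 8 in neither direction, beside 6.78% of all tested genes called higher and 3.95% lower. Counted without the test, 6 of the 12 lay above sham without overlap there and 3 below, where 30.4% and 30.0% of all tested genes did. The 3 were Slc38a3, Slc38a4 and Slc36a1. Slc38a3, a glutamine carrier, was at 1528 and 1736 CPM in sham and 348.4 and 985.6 CPM in metastasis livers (-1.29, edgeR adjusted p = 0.129), with -0.72 (adjusted p = 0.0459) without metastasis liver 1 and -2.23 (0.000577) without liver 2. Slc36a1 was at 24.3 and 25.7 CPM in sham and 8.75 and 22.8 CPM in metastasis livers (-0.67, adjusted p = 0.341), with -0.13 (adjusted p = 0.706) and -1.51 (0.00282). For Slc38a4 the log2 fold change was -0.50, with -0.70 and -0.32. Slc38a2, a carrier of small neutral amino acids, was at 162.1 and 112.8 CPM in sham, 1000 and 360.8 CPM in PMN and 450.0 and 477.9 CPM in metastasis livers, and rose in PMN livers (2.31, SE 0.49, edgeR adjusted p = 0.043). Slc7a7, a subunit of a carrier for arginine and ornithine that macrophages also express, was at 1.53 and 1.29 CPM in sham, 8.79 and 7.33 CPM in PMN and 3.94 and 8.39 CPM in metastasis livers, and was higher in both (2.51, edgeR adjusted p = 0.0262, and 2.13, adjusted p = 0.0303). Markers of macrophages and monocytes summed to 176.8 to 180.7 CPM in sham, 739.8 to 992.7 CPM in PMN and 664.9 to 932.0 CPM in metastasis livers, and their part in the level of Slc7a7 was not tested. Slc1a4, a carrier of alanine, serine and cysteine, was at 5.35 and 4.57 CPM in sham and 26.2 and 12.7 CPM in metastasis livers (1.97, adjusted p = 0.0335).

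Of 12 genes of the fasting and glucagon response, 1 was called higher and 0 lower in each comparison, beside 4.92% and 2.38% of all tested genes in PMN and 6.78% and 3.95% in metastasis livers. It was Igfbp1, a binding protein of insulin-like growth factors, at 71.8 and 20.6 CPM in sham, 4473 and 770.4 CPM in PMN and 4209 and 1388 CPM in metastasis livers (5.83, edgeR adjusted p = 0.0382, and 5.92, adjusted p = 0.0307). In PMN livers the median log2 fold change of the list was 0.63, with 6 of 12 above sham without overlap and 1 below, where 34.4% and 34.0% of all tested genes were, and 4 had an unadjusted p under 0.05 upward and 0 downward, beside 15.2% and 11.8%. In metastasis livers the median was 0.26, with 4 above and 4 below without overlap, where 30.4% and 30.0% of all tested genes were.

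With a metastasis liver left out, the counts of these lists against sham livers moved, as did those of all tested genes (9.58% higher and 6.93% lower without liver 1, 17.3% and 15.4% without liver 2). The 18 genes of arginine use gave 3 higher and 5 lower without liver 1 and 3 higher and 7 lower without liver 2. The 12 carriers gave 3 and 2 and then 7 and 2, and the 12 fasting genes 1 and 1 and then 5 and 3. Agmat, Ddah1, Paox, Slc7a7, Slc1a4 and Igfbp1 kept their direction without either liver. Without liver 1 and then without liver 2, Agmat was at -2.09 and -3.83, Slc7a7 at 2.58 and 1.48 and Igfbp1 at 4.91 and 6.51.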
